A study of Ovis aries with 23 samples.

Results

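The thyrotropin receptor gene TSHR (ENSOARG00000002882) was followed through the pars tuberalis (PT) of castrate sheep, as 1 of the 25197 Ensembl genes counted in each of 23 RNA-seq samples. The gene was chosen by name with its values already known, for its levels in the 4 photoperiod groups, in odd- and even-numbered samples, and against CRY1 and TSHB between samples. Its own values are therefore given as a description with no test, and tests are kept for other genes of its pathway. All samples came from neutered male Scottish blackface sheep. They were kept on short photoperiods (SP, 5 samples) or were taken on day 1, day 7, or day 28 of long photoperiods (LP, 6 samples each). Within a group the samples are numbered from 1, and the labels do not say what an odd or even number stands for. The paper states that the time points of sampling varied. Whether odd- and even-numbered samples differ in time of collection was not tested. The labels also do not say that each sample is a separate animal, so p-values measure only the spread between these samples. Because every animal was a castrate male, the levels apply to that state alone.

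TSHR is a G protein-coupled receptor on the cell surface. Its ligand, thyrotropin (TSH), is a dimer of the α-subunit CGA and the β-subunit TSHB. When TSH binds, the receptor acts mainly through the stimulatory G protein and cAMP, and at higher hormone levels also through phospholipase C. It is best known from the thyroid follicle, where it drives hormone synthesis. In seasonal mammals, the thyrotrophs of the PT release TSH under the control of melatonin, which acts through MTNR1A. TSH from the PT then reaches TSHR on tanycytes of the hypothalamus and raises the deiodinase DIO2 there. CRY1 encodes a repressor of the circadian clock.

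Sequencing gave from 307952 to 4413929 counts a sample (median 3332320). LP day 1 sample 4 was the shallowest, and without it the lowest total was 1852503. TSHR received 22 to 388 counts per sample, so no sample was near the limit of 3 counts. Levels are given as CPM, the count of a gene scaled to a fixed library total and normalized with edgeR's TMM factors over all 23 samples. In a tissue sample, fewer cells of one type and less RNA per cell cannot be told apart. LP day 1 samples 3 and 4 were closer to each other than any other 2 samples of a group, with a mean chi-square of 1.19 over 8858 genes. They still differed beyond counting noise and were kept as 2 samples, though this does not show that they came from separate animals.

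In the SP group, TSHR stood at 10.3, 29.5, 22.2, 30.8, and 88.3 CPM in samples 1 to 5. Sample 5 lay far above the other 4 samples. On LP day 1, the values were 16.3, 75.9, 65.6, 94.9, 49.9, and 29.4 CPM in samples 1 to 6. The highest of these was sample 4, where 32 counts gave an exact Poisson interval (95%, for counting error only) of 64.9 to 134 CPM.

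On LP day 7, TSHR stood at 20.9, 115, 11.7, 101, 23.4, and 89.9 CPM in samples 1 to 6, and on LP day 28 at 16.6, 67.1, 24.2, 46.1, 10.7, and 87.3 CPM. Both groups split into 3 low and 3 high samples. The low samples were those with odd numbers and the high ones those with even numbers. Over all 23 samples the highest value was 11.1-fold above the lowest.

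**Figure D1:**
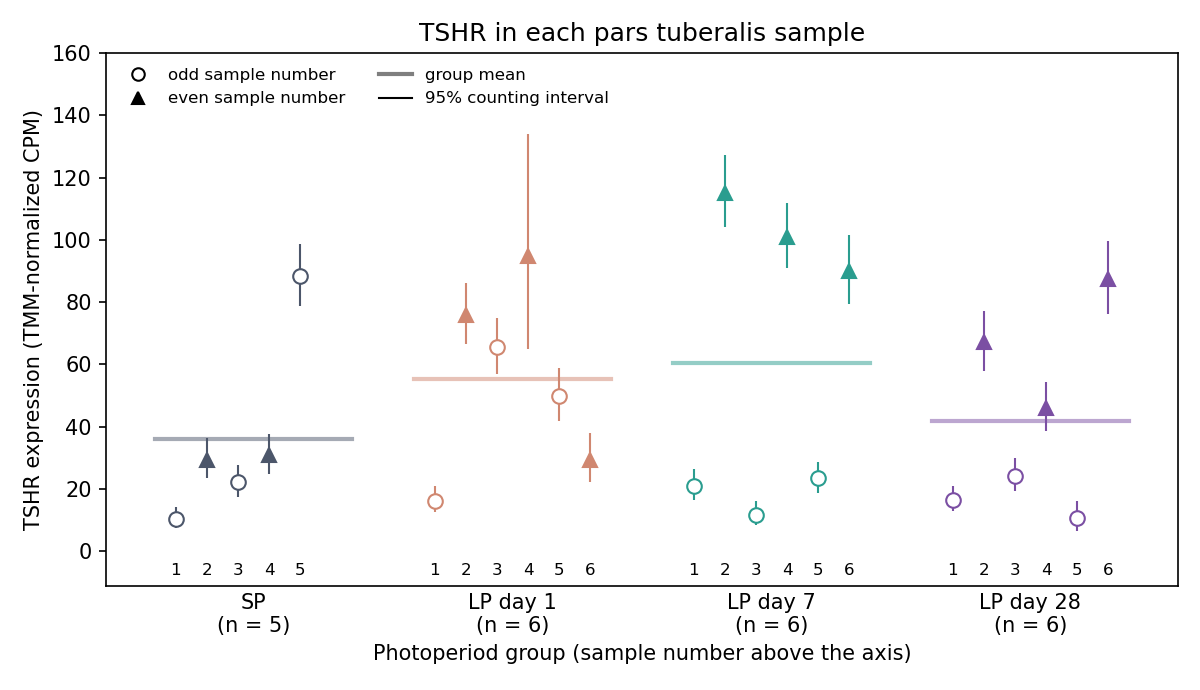
TSHR in each PT sample, in TMM-normalized CPM on a linear axis, by photoperiod group. Open circles are odd and filled triangles even sample numbers, thin bars are 95% Poisson intervals of the counts, and thick lines are group means. On LP days 7 and 28 every even-numbered sample (46.1 to 115 CPM) lies above every odd-numbered one (10.7 to 24.2 CPM), while the SP and LP day 1 samples show no such order.

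The groups themselves overlapped. Mean TSHR was 36.2 ± 30.2 CPM on SP (SD, n = 5), 55.3 ± 29.4 on LP day 1 (SD, n = 6), 60.3 ± 46.5 on LP day 7 (SD, n = 6), and 42.0 ± 30.5 on LP day 28 (SD, n = 6). From lowest to highest mean the order was SP, LP day 28, LP day 1, and LP day 7, and no neighbours in this order were apart by more than the SD of either group. The medians were 29.5 CPM on SP, 57.7 on LP day 1, 56.6 on LP day 7, and 35.1 on LP day 28. With LP day 1 samples 3 and 4 summed into 1, the LP day 1 mean was 47.7 ± 25.2 CPM (SD, n = 5).

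With the group as the only term, fitted differences were below or little above their standard errors. On the log2 scale, TSHR on LP day 1 minus SP was 0.52 (SE 0.45), on LP day 7 minus SP 0.73 (SE 0.57), and on LP day 28 minus SP 0.20 (SE 0.49). All of these use the same 5 SP samples. They depended on SP sample 5, without which they were 1.17, 1.38, and 0.86. They also depended on the terms of the fit. A covariate for odd or even number gave 0.50 (SE 0.46), 0.17 (SE 0.57), and -0.14 (SE 0.50). A block for the sample number gave 0.85 (SE 0.31), 0.44 (SE 0.50), and 0.03 (SE 0.44). With LP day 1 samples 3 and 4 summed into 1, LP day 1 minus SP was 0.41 (SE 0.47). The difference from LP day 1 to LP day 7 was 0.22 (SE 0.50), and from LP day 7 to LP day 28 it was -0.52 (SE 0.53). With odd or even number as a covariate, the last of these was -0.39, with the SE reduced to 0.20.

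The split by sample number was then measured. On LP day 7, the odd-numbered samples averaged 18.7 ± 6.15 CPM (SD, n = 3) and the even-numbered ones 102.0 ± 12.7 (SD, n = 3), a ratio of 5.46. On LP day 28, the averages were 17.2 ± 6.77 (SD, n = 3) and 66.8 ± 20.6 CPM (SD, n = 3), a ratio of 3.90. All even-numbered samples of LP day 7 (89.9 to 115 CPM) were above all even-numbered samples of LP day 28 (46.1 to 87.3 CPM), whereas the odd-numbered samples of the 2 days overlapped (11.7 to 23.4 and 10.7 to 24.2 CPM).

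Over both days together, even minus odd was 2.19 (SE 0.20) on the log2 scale. The alignment folders named in the file headers are numbered once over samples 1 to 3 and again over samples 4 to 6 of the groups, so these were treated as 2 sets of libraries. Within samples 1 to 3 the difference was 2.30 (SE 0.28), and within samples 4 to 6 it was 2.23 (SE 0.27). On SP and LP day 1 together, even minus odd was 0.09 (SE 0.47), and it was 0.87 (SE 0.45) within samples 1 to 3 and -0.71 (SE 0.37) within samples 4 to 6. Odd-numbered samples spanned 10.3 to 88.3 CPM there and even-numbered ones 29.4 to 94.9 CPM, so they overlapped. Whether the odd and even difference itself differed between these groups was not tested.

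CRY1 (ENSOARG00000017816) divided the samples of LP days 7 and 28 in the same places as TSHR did. Its level was 16.9 to 34.5 CPM in 10 samples and 138 to 406 CPM in the other 13, with none between. The 10 low samples were SP samples 1 and 3, LP day 1 samples 1 and 6, and samples 1, 3, and 5 of LP days 7 and 28. In them TSHR ranged from 10.3 to 29.4 CPM. In the 13 high samples TSHR ranged from 29.5 to 115 CPM, so TSHR met at the border without crossing it. The samples nearest to it were LP day 1 sample 6, at 29.4 CPM with an interval of 22.3 to 38.02, and SP sample 2, at 29.5 CPM with an interval of 23.6 to 36.3. Even over odd means of CRY1 were 11.8 on LP day 7 and 7.13 on LP day 28, larger ratios than those of TSHR.

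SP sample 5, which held the highest TSHR of its group, also held the highest CRY1 of all samples at 406 CPM. SP samples 2 and 4, by contrast, held CRY1 at 206 and 237 CPM with TSHR at only 29.5 and 30.8 CPM. Since CRY1 forms 2 clusters, its relation to TSHR was described within each. Over the 10 low samples, Pearson's r of log2 CPM was 0.64 (Spearman's rho 0.67), which dropped to 0.23 without the 2 samples farthest from the median of CRY1, and over the 13 high samples it was 0.45 (rho 0.63), and 0.36 without such 2 samples. Without them rho was 0.38 among the low and 0.59 among the high samples. Leaving out such samples also narrows the range of CRY1, which can lower r by itself. Whether the relation rests on them was therefore not settled.

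TSHB (ENSOARG00000020127), which encodes the hormone's own β-subunit, followed the division by CRY1 on SP and LP day 7 but not on LP days 1 and 28. It ranged from 47.0 to 664 CPM on SP, 174 to 394 on LP day 1, 289 to 1151 on LP day 7, and 921 to 1580 on LP day 28. Every LP day 28 sample thus lay above every SP and LP day 1 sample, while TSHR overlapped between all groups. On LP day 28, TSHB was 1267 ± 274 CPM (SD, n = 3) in odd-numbered samples, where TSHR was low, and 1168 ± 217 (SD, n = 3) in even-numbered ones, where TSHR was high. On LP day 7, TSHB too was above in all even-numbered samples, with 666 to 1151 CPM against 289 to 452, as it was on SP, with 625.5 to 663.9 CPM against 47.0 to 265. SP sample 5, odd-numbered but high in CRY1, held 265 CPM of TSHB, above the 207 and 47.0 CPM of SP samples 1 and 3. On LP days 1 and 28 odd- and even-numbered samples overlapped in TSHB, as did samples of low and high CRY1.

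Over all 23 samples, r between TSHR and TSHB was 0.14 (rho 0.17), and it was 0.17 without the 2 samples farthest from the median of TSHB. With the mean of each group removed it was 0.32 (rho 0.41), and within single groups of 6 samples it was 0.13 on LP day 1, 0.83 (rho 0.77) on LP day 7, and -0.02 on LP day 28. It was -0.24 (rho -0.12) among the 10 samples of low CRY1 and -0.01 (rho 0.14) among the 13 of high CRY1. The samples differ in depth and photoperiod and were treated as 2 sets of libraries, so the correlations are descriptive and carry no p-value.

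**Figure D2:**
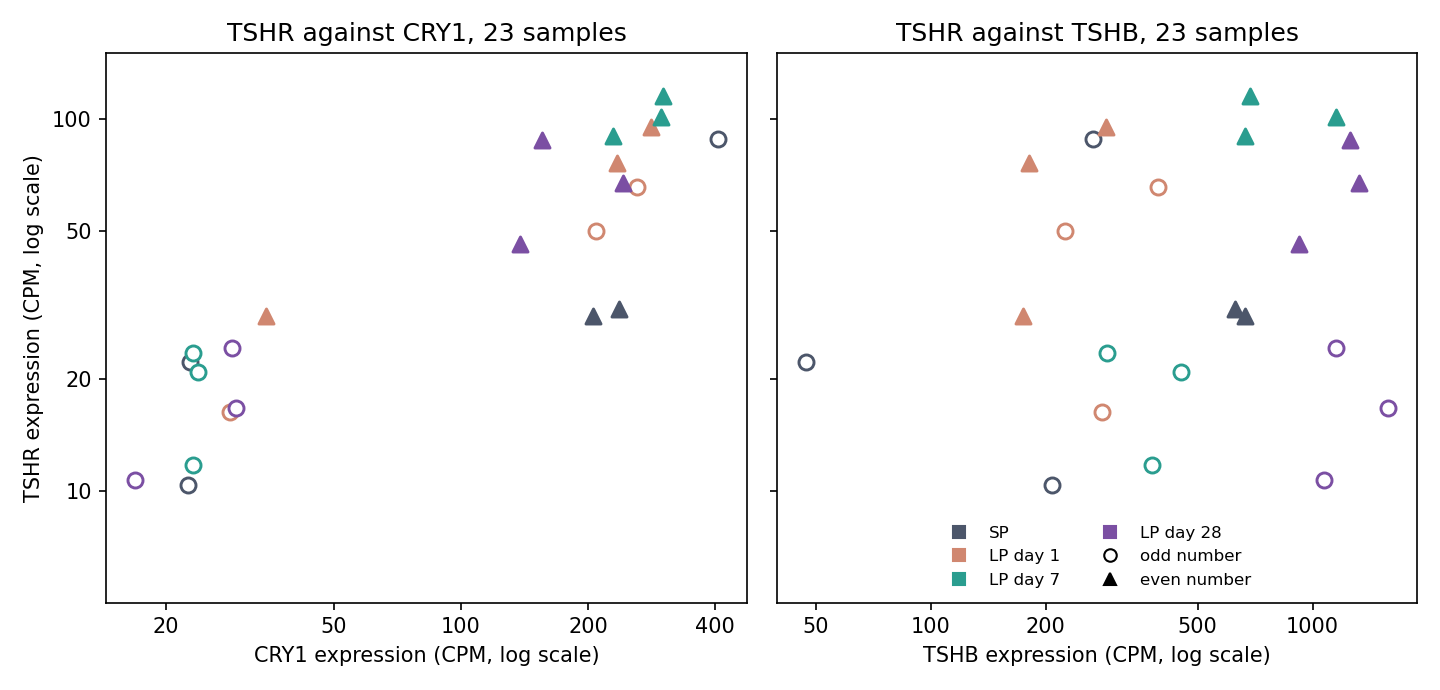
TSHR against CRY1 (left) and against TSHB (right), both in CPM on log axes, with 1 point per sample, colours for the photoperiod groups, and open circles for odd and filled triangles for even sample numbers. In the left panel the samples form a low cluster (CRY1 16.9 to 34.5 CPM) and a high cluster (CRY1 138 to 406 CPM) with TSHR up to 29.4 and from 29.5 CPM, and in the right panel the LP day 28 samples lie together on TSHB (921 to 1580 CPM) but apart on TSHR.

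The tests concern the pathway around TSHR. Of 125 symbols listed for it, 25 could be paired with a gene of the count files, and all 25 were tested in every comparison. Symbols were paired through gene tables that the study had selected on PT samples including these, so neither their direction nor their share called nor the size of their differences is independent evidence. All of these can be raised by that choice when set beside all genes. The other glycoprotein hormone receptors, the G proteins, the cAMP effectors, and the desensitization genes had no paired member. A gene was called DE where the quasi-likelihood test of edgeR gave an FDR (Benjamini-Hochberg, over all genes) under 0.05.

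After 1 day of LP, none of the 25 genes was called by edgeR, where 0% of 14920 genes were called, although 4 of the 25 and 497 of all genes had an unadjusted p under 0.05. DESeq2 called 2 genes in all, 1 of them SLCO1C1. On LP day 7, SLCO1C1 alone was called, against a background of 0.266%. On LP day 28, 3 of the 25 were called, against 0.67% of all genes, with SLCO1C1 and EYA3 higher and THRA lower than on SP. The median log2 difference of the 25 genes was 0.46 both on LP day 7 and on LP day 28, and that of all genes tested was -0.01 in both.

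For the ligand, neither subunit was called. TSHB on LP day 28 minus SP was 1.75 (SE 0.41) on the log2 scale, with an edgeR FDR of 0.0615, even though the groups did not overlap. The shared subunit CGA was at 8384 ± 892 CPM on SP (SD, n = 5) and 8955 ± 834 on LP day 28 (SD, n = 6), a log2 difference of 0.09 (SE 0.09, edgeR FDR 0.694).

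Among 7 regulators of TSHB, only EYA3, a co-activator of TSHB transcription, was called on LP day 28. It was at 23.02 to 37.1 CPM on SP and 37.6 to 471 CPM on LP day 28, a log2 difference of 2.57 (SE 0.57, edgeR FDR 0.0481). The groups were apart by little at their edges, since the even-numbered LP day 28 samples stayed near the SP level. The call was kept under 5 of 10 other settings and in 3 of 11 fits that each left out 1 sample, where the FDR ran from 0.0231 to 0.142. On LP day 7, EYA3 had a log2 difference of 3.22 (SE 0.78), with an edgeR FDR of 0.0777.

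Of 5 genes for transport and metabolism of thyroid hormone, SLCO1C1, a carrier of thyroxine across cell membranes, was called on both days. It was at 23.7 to 39.2 CPM on SP, 45.6 to 136 on LP day 1, 96.9 to 180 on LP day 7, and 84.8 to 126 on LP day 28. No LP sample overlapped with SP. The log2 difference from SP was 2.21 (SE 0.18, edgeR FDR 1.47e-05) on LP day 7 and 1.80 (SE 0.14, edgeR FDR 2.65e-06) on LP day 28, and both calls were kept in all settings run. Between sample numbers of LP days 7 and 28, SLCO1C1 was not called, with even minus odd at 0.02 (SE 0.14, edgeR FDR 0.978).

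DIO2, the deiodinase that activates thyroxine, was at 10.01 ± 5.26 CPM on SP (SD, n = 5), 19.4 ± 8.52 on LP day 7 (SD, n = 6), and 11.8 ± 4.62 on LP day 28 (SD, n = 6), and was not called (edgeR FDR 0.227 on LP day 7). THRA, the α thyroid hormone receptor, was called lower on LP day 28. It was at 289 to 336 CPM on SP and 212 to 250 CPM on LP day 28, a log2 difference of -0.44 (SE 0.08, edgeR FDR 0.0169). Its call was lost without SP sample 2 or LP day 28 sample 6, where the FDR rose to at most 0.0588, and under 2 of 10 other settings, with SP samples 2, 3, and 5 only and with the sample number as a block.

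From LP day 1 to day 7 and from LP day 7 to day 28, none of the 25 genes was called by edgeR or by DESeq2, and LP day 1 was not fitted against LP day 28. The shares of all genes called by edgeR were 0.0201% and 0.00672%. At an unadjusted p under 0.05 were 7 of the 25 and 5.56% of all 14897 genes from day 1 to day 7, and 8 of the 25 and 7.13% of all 14890 genes from day 7 to day 28. TSHB came to 1.23 (SE 0.28, edgeR FDR 0.374) and 1.02 (SE 0.24, edgeR FDR 0.244) on the log2 scale in these comparisons.

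The same genes were compared by sample number. Between odd and even numbers of LP days 7 and 28, 7 of the 25 genes were called by edgeR, where 1.02% of 14890 genes were called. The 6 that were higher in odd-numbered samples, where TSHR was low, stand beside a background of 0.719%, and the 1 higher in even-numbered samples beside 0.302%. This contrast is one of those for which TSHR was chosen, so the counts lend no support to its pattern. The median log2 difference of the 25 genes was -0.20 and that of all genes 0.00.

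The 4 called regulators of TSHB ran against TSHR. EYA3 was at 123 to 969 CPM in the odd-numbered samples and 30.9 to 58.5 CPM in the even-numbered ones, a log2 difference of -3.36 (SE 0.34, edgeR FDR 5.69e-05). MTNR1A, the melatonin receptor, was at 14.5 to 41.5 CPM against 0.537 to 7.02 CPM, a log2 difference of -3.30 (SE 0.40, edgeR FDR 3.04e-04), and its even-numbered samples held only 2 to 18 counts. DBP and TEF, related clock-output transcription factors of which TEF acts on the TSHB promoter, came to -0.90 (SE 0.14, edgeR FDR 0.00278) and -0.58 (SE 0.10, edgeR FDR 0.0057).

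PDE10A and PDE3A, phosphodiesterases that break down the cAMP made on receptor activation, were the called members among 4 genes of cAMP synthesis and breakdown. PDE10A was at 34.4 to 62.0 CPM in odd- and 13.4 to 19.9 CPM in even-numbered samples, a log2 difference of -1.48 (SE 0.18, edgeR FDR 3.02e-04). PDE3A was at 11.1 to 19.9 against 4.04 to 7.72 CPM, a log2 difference of -1.42 (SE 0.22, edgeR FDR 0.00237). No odd-numbered sample overlapped with an even-numbered one for either gene.

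FOSL2, 1 of 4 early genes induced by cAMP, went the way of TSHR. It was at 9.24 to 13.1 CPM in odd- and 10.1 to 35.9 CPM in even-numbered samples, which overlapped, and the log2 difference was 1.13 (SE 0.21, edgeR FDR 0.0106). Within samples 4 to 6 alone, 6 of these 7 genes were called, all but FOSL2, among 45 of all 15480 genes. Within samples 1 to 3, edgeR called none of the 25 and 9 of all 15429 genes, and the 7 kept their direction. At an unadjusted p under 0.05 were 10 of the 25 and 950 of all genes there. On SP and LP day 1, no pathway gene was called between odd and even numbers by edgeR or DESeq2, where 0% of all genes were called by edgeR. At an unadjusted p under 0.05 were 3 of the 25 and 5.13% of all 14920 genes.

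**Figure D3:**
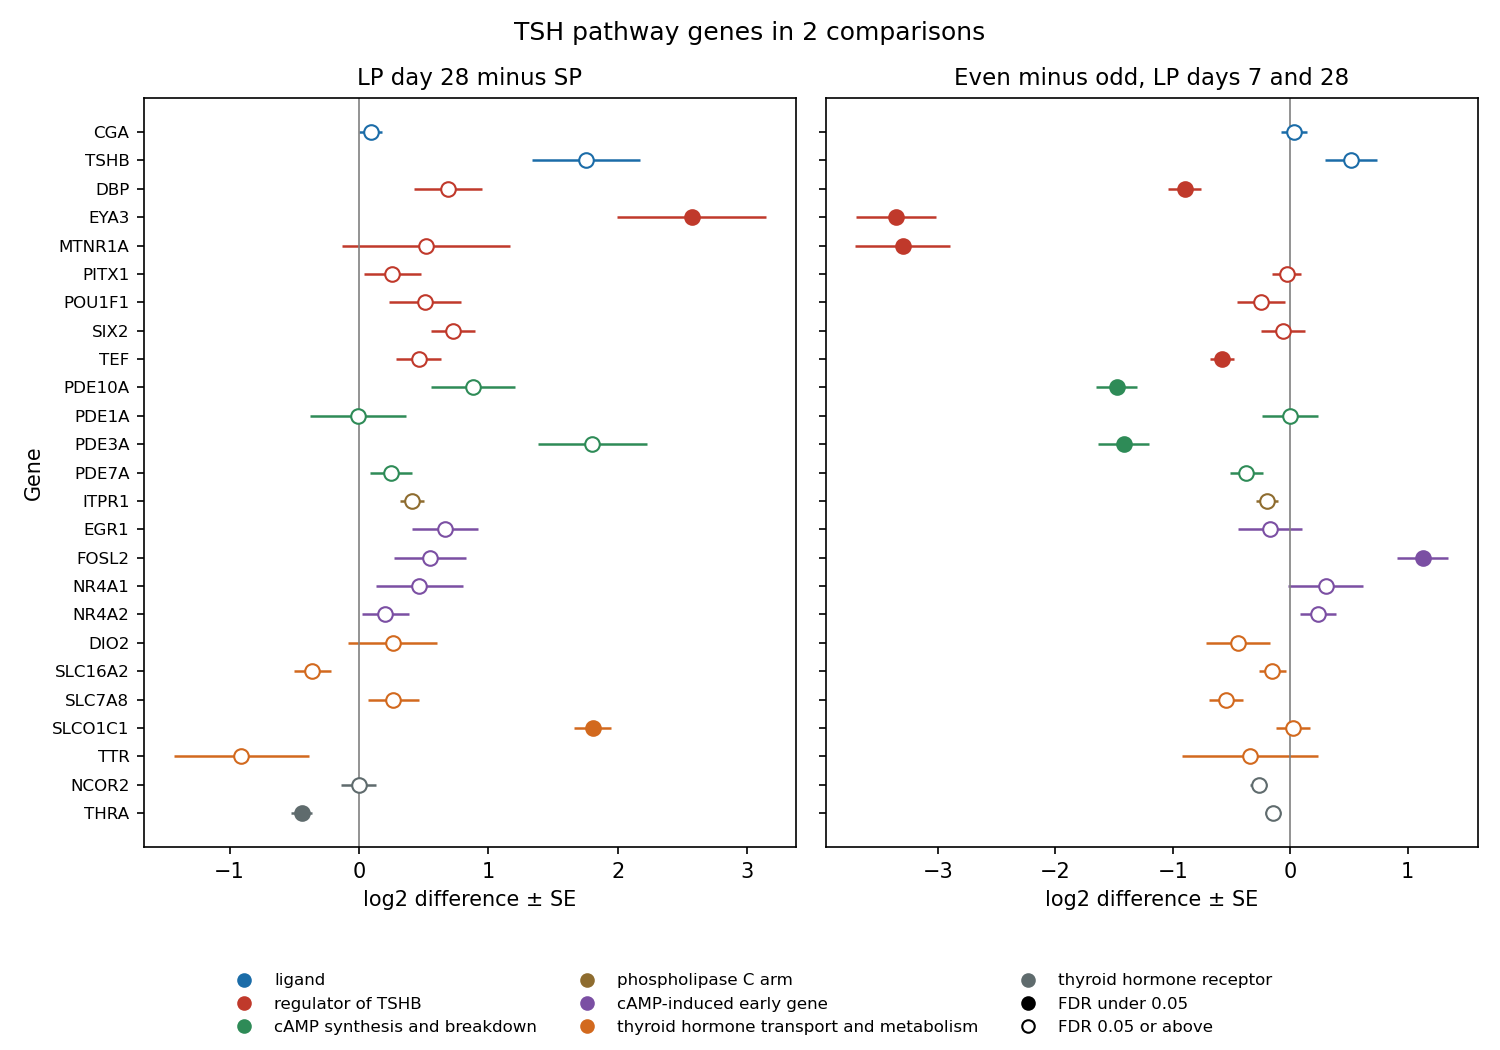
Log2 differences with SE of the 25 paired TSH pathway genes, on LP day 28 minus SP (left) and in even minus odd sample numbers on LP days 7 and 28 (right), coloured by role, with filled points at an edgeR FDR under 0.05. In the left panel SLCO1C1 (1.80), EYA3 (2.57), and THRA (-0.44) are filled, and in the right panel EYA3, MTNR1A, PDE10A, PDE3A, DBP, and TEF are filled on the left of 0 and FOSL2 (1.13) on the right.

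Genes with the pattern most like TSHR were ranked by Pearson's r of log2 CPM over the 23 samples, among 705 genes with a symbol and a mean of at least 10 CPM. A total of 10447 genes reached that mean, and genes with no symbol stood among the leading ones. Of these, 2 were more like TSHR than KLHL41 was, and 10 were more opposite than MAPK8IP1. The symbols came from the gene tables that the study had selected on PT samples including these. CRY1 came first of all genes, with r = 0.89 (rho 0.91). Among genes with a symbol, it was followed by KLHL41, a muscle kelch protein, at 0.83, and TRPC7, a cation channel, at 0.79. GYG1, the primer of glycogen synthesis, and GABRG1, a subunit of the GABA type A receptor, came next, both at 0.78. Most opposite among genes with a symbol were the kinase gene NIM1K and MTNR1A, both at -0.78. NAB2, a co-repressor of EGR factors, and MARCH4, a ubiquitin ligase, were at -0.75, and MAPK8IP1, a scaffold of the JNK pathway, at -0.73.

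Of these 10 genes, all but GABRG1 and NIM1K had no overlap between odd and even numbers over LP days 7 and 28. They were ranked by likeness to TSHR on these same samples, so such a split is largely built in and is no separate result. The share of all genes without overlap was not counted. KLHL41 was at 22.3 to 46.1 CPM in odd- and 65.3 to 104 CPM in even-numbered samples, and TRPC7 at 3.39 to 8.99 and 13.3 to 22.02 CPM. GYG1 was at 34.1 to 47.0 and 53.0 to 90.2 CPM. GABRG1 overlapped across the 2 days, at 7.75 to 17.1 and 16.1 to 37.0 CPM. Of the opposite genes, NAB2 was at 95.2 to 172 CPM in odd- and 43.8 to 75.7 CPM in even-numbered samples, and MARCH4 at 54.9 to 97.4 and 17.1 to 35.3 CPM. NIM1K overlapped, at 26.8 to 41.6 and 20.9 to 27.6 CPM.

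**Figure D4:**
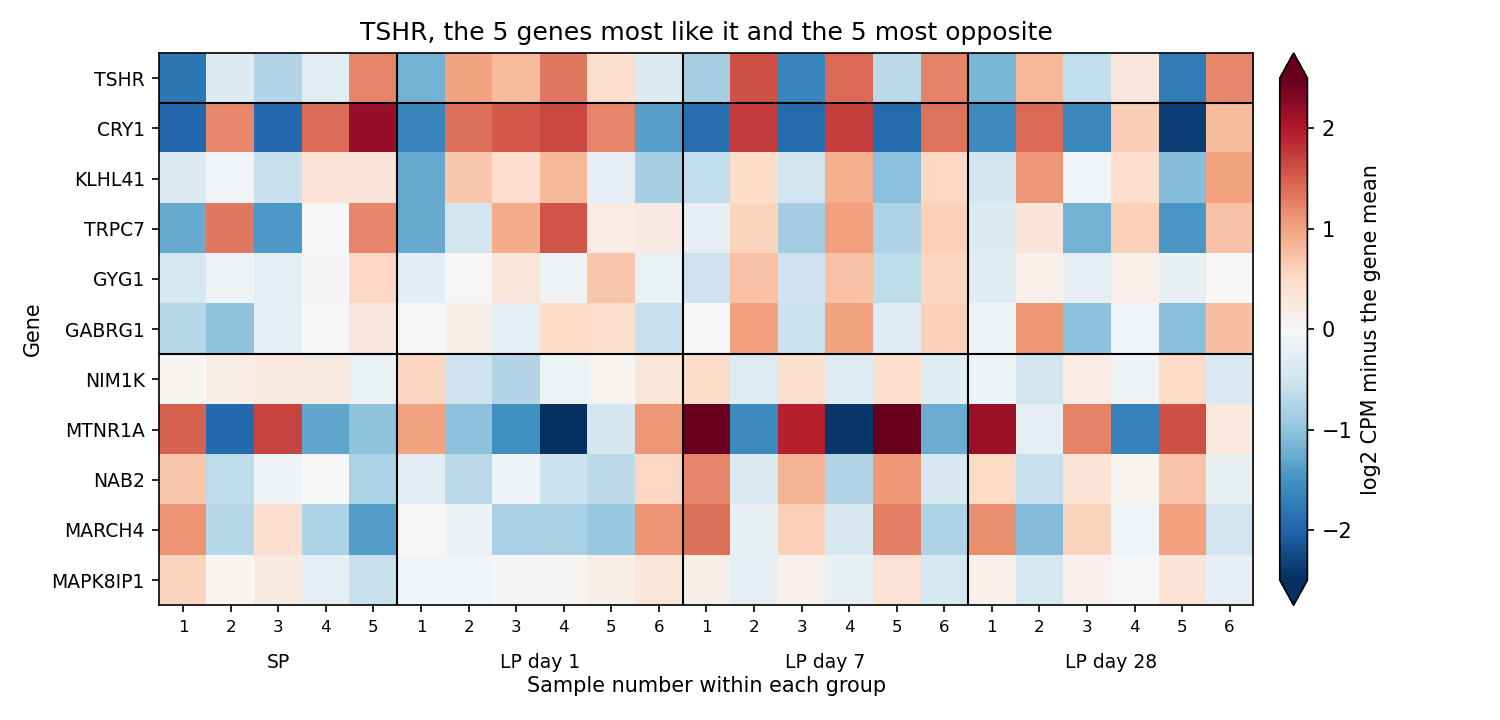
Log2 CPM minus the mean of the gene in each of the 23 samples (columns, by group and sample number) for TSHR (top row) and for genes with a symbol. These are the 5 most like TSHR (r of 0.78 to 0.89) and the 5 most opposite (r of -0.78 to -0.73). Red is above and blue below the mean, with colours held at their limit beyond 2.5. On LP days 7 and 28 colours alternate from sample to sample for TSHR and CRY1, and in the reverse order for MARCH4.

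The split in TSHR was set beside markers of the cells a PT sample could hold. The 5 PT thyrotroph markers (TSHB, CGA, MTNR1A, EYA3, and CHGA) summed to 7975 to 13807 CPM in odd- and 8972 to 11281 CPM in even-numbered samples of LP days 7 and 28. The 7 paired pars distalis markers, led by PRL, summed to 46552 to 272730 and 74632 to 252968 CPM. The 4 folliculostellate markers summed to 814 to 1117 and 680 to 1016 CPM, and the 4 tanycyte and ependymal markers to 582 to 944 and 723 to 1020 CPM. All of these sums overlapped between odd and even numbers, though the thyrotroph sum is carried by CGA and CHGA, and 2 of its 5 members, EYA3 and MTNR1A, were higher in all odd- than in all even-numbered samples. The paper also places CHGA and TSHβ in cells of the pars distalis, whose markers were high in these samples. The thyrotroph sum is therefore not a measure of PT thyrotrophs alone. As to detection, all paired markers of these types were detected in every sample except MTNR1A and COL25A1, each at 0 in 1 sample. STMN2, a neuronal gene, was at 60.0 to 177 and 87.3 to 165 CPM. PTPRC, of leukocytes, was at 16.8 to 87.6 and 27.8 to 68.5 CPM. SLC5A5, the iodide transporter of the thyroid gland, stayed between 1.06 and 13.6 CPM in all 23 samples.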

How the data were processed

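RNA-seq of 23 PT samples was used. The authors deposited raw counts of reads per Ensembl sheep gene, 1 table per sample. The submitters' notes name Bowtie, HTSeq, and build Oar_v3.1, whereas the file headers have the form of featureCounts on TopHat alignments, and the counting program was not settled. Strand of counting was not stated. In ARS-UI_Ramb_v3.0, another assembly, no gene overlaps TSHR, whose protein-coding neighbours are CEP128 and GTF2A1.

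Groups came from the labels. Counts were fitted in R 4.3.3 with edgeR 4.0.16, using TMM factors, a filter that kept genes above 1 CPM in a number of samples no smaller than the smaller group, and the quasi-likelihood test, after a check on simulated data. SEs are the log2 difference over the square root of F. Log2 CPM used a prior count of 2. Poisson intervals (95%) used scipy 1.17.1. DESeq2 1.42.0, limma 3.58.1, other filters and scalings, covariates, and leaving out samples were tried as alternatives. Pathway genes outside the ligands were named if they passed the test (at most 3 in each direction per list). TEF passed the test but was named beyond this limit, and DIO2 was named after its values were seen. TSHR, the gene lists, and the tests were chosen with earlier results of these data known. Reads carry no molecular identifiers, so intervals and the floor of 3 counts cover counting error only.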

Additional observations from a re-analysis of the deposited data

Results flagged for a closer look

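For 13 genes, 52 pairings of a gene with a photoperiod group were looked at, and 3 held a sample far from the rest of its group. Chance can give such samples too, and how often it does so in these levels was not measured. TSHR in SP sample 5 was at 88.3 CPM, against 10.3 to 30.8 CPM in the other SP samples. SLCO1C1 in LP day 1 sample 5 was at 136 CPM, against 45.6 to 62.3 CPM in the rest of LP day 1. EYA3 in LP day 7 sample 1 was at 969 CPM, against 30.9 to 381 CPM in the rest of LP day 7.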

How the results depend on the processing

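The TSHR difference between even and odd numbers on LP days 7 and 28 stayed between 2.05 and 2.36 (log2) under 20 alternatives. Those between SP and LP day 28 (-0.17 to 0.86) and between LP day 1 and LP day 7 (-0.25 to 0.44) changed sign under 4 alternatives each, and that between even and odd numbers on SP and LP day 1 (-0.71 to 0.87) under 7. Of the 25 pathway genes, DESeq2 called 1, 4, and 7 on LP days 1, 7, and 28 against SP, in place of 0, 1, and 3, and 2, 357, and 346 of all genes in place of 0, 40, and 100. With odd or even number as a covariate the calls were 3 on LP day 7 and 8 on LP day 28 (334 and 154 of all genes), with no filter on low counts 6 on LP day 28, and with SP samples 2, 3, and 5 only 1 on LP day 28. Leaving out each sample in turn gave 1 to 3 calls on LP day 7 (3 without LP day 7 sample 6) and 1 to 5 on LP day 28 (1 without SP sample 2, 5 without LP day 28 sample 4). It gave 0 to 1 from LP day 1 to LP day 7 (SLCO1C1, without LP day 1 sample 5) and 0 to 1 from LP day 7 to LP day 28 (TSHB, without LP day 7 sample 4). Within samples 1 to 3, chosen after seeing the data, 0 of the 7 calls between odd and even numbers were kept, and fewer samples were tested. The r of TSHR with CRY1 was 0.89 over all samples, 0.64 below and 0.45 above the gap in CRY1, and with TSHB it was 0.14 and, below the gap, -0.24. The cause of the other changes was not tested.

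Samples of the same number in different groups had mean correlations of deviations from -0.04 to 0.07, with single pairs from -0.19 to 0.27. Samples of unlike number were not compared, so whether the numbers pair samples across groups was not tested. With the sample number as a replicate block, 0, 2, and 1 of the 25 genes were called on LP days 1, 7, and 28 against SP, and 0, 178, and 41 of all genes. Depth limits low genes such as MTNR1A, PDE3A, and DIO2, since 3 counts are 9.74 CPM in LP day 1 sample 4.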

Other observations

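After the mean of each group was removed, CRY1 (r = 0.92) and KLHL41 (0.89) remained most like TSHR over the 23 samples among genes with a symbol. DRD1, a dopamine receptor, followed at 0.83. Most opposite among genes with a symbol were then NAB2 (-0.83), NR1D1 (-0.83), MARCH4 (-0.82), ACSL4 (-0.82), and MTNR1A (-0.81). NR1D1, a nuclear receptor that represses clock genes, was at 107 to 458 CPM in odd- and 67.7 to 102 CPM in even-numbered samples of LP days 7 and 28. ACSL4, which activates arachidonic acid, was at 462 to 1509 and 78.2 to 171 CPM there, and at 75.5 to 175 CPM in all SP and LP day 1 samples. DRD1 was at 1.53 to 11.6 and 20.3 to 38.4 CPM on LP days 7 and 28, and reached 110 CPM on LP day 1. These genes were named by their rank, with the same samples used for rank and levels, so no test was made.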
